A study of Mus musculus with 20 samples.

Results

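The genes described here are 10 redox genes that were picked by name from the 54532 genes of the count table. They are 3 subunits of the phagocyte NADPH oxidase (Cybb, Cyba and Ncf1), 3 metallothioneins (Mt1, Mt2 and Mt3) and 4 antioxidant enzymes (Gpx1, Gpx4, Nqo1 and Txnrd1). All 10 were found in the table, and 9 had enough reads to be tested, Mt2 being the exception. The 20 RNA-seq libraries, 5 per genotype, were made from mouse brain, 1 hemisphere each. Mice were wild type (WT), lacked Glb1 (Glb1KO), lacked Neu3 (Neu3KO) or lacked both genes (DKO), and the labels trace mice of all 4 groups to The Jackson Laboratory. The Glb1 product is the beta-galactosidase of lysosomes, missing in GM1 gangliosidosis, and the Neu3 product is a ganglioside sialidase, so the design asks what loss of Neu3 adds where Glb1 is missing. The sources used here give no age, sex, strain or description of the alleles.

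The phagocyte NADPH oxidase moves electrons from NADPH across a membrane to oxygen and so makes superoxide. Its membrane part is a pair formed by the Cybb product, which carries out the transfer, and the Cyba product, which stabilises it, while the Ncf1 product is an organiser that brings the soluble subunits to the membrane. In brain the complex is known best from microglia, the resident macrophages. Metallothioneins are small cysteine-rich proteins that bind zinc and copper. Mt1 and Mt2 are induced by metals and stress through the factor MTF-1, which binds metal response elements in their promoters, whereas Mt3 is the form typical of nervous tissue. Gpx1 and Gpx4 are selenium-dependent glutathione peroxidases, acting on soluble peroxides and on lipid peroxides in membranes respectively. Nqo1, a quinone reductase, and Txnrd1, the cytosolic thioredoxin reductase, are classic targets of the antioxidant factor NRF2.

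Total counts per library ran from 15162311 to 25145806, and 18336 genes were tested. Reads of Glb1 numbered 329 to 394 per WT library, 36 to 76 in Glb1KO and 42 to 97 in DKO. Reads of Neu3 numbered 44 to 91 in WT, 39 to 61 in Neu3KO and 35 to 75 in DKO, so these groups overlapped. Which part of Neu3 was removed was not given, so its reads do not check the label. Each library carries an identifier with a leading letter whose meaning was not given. All WT libraries have E, while E is shared by 2 Glb1KO, 1 Neu3KO and 2 DKO libraries, so values among E libraries stand beside the main ones. The labels do not state that libraries came from separate animals, and p-values measure the spread between libraries. In bulk tissue, fewer cells of a type and less RNA per cell cannot be told apart.

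The 3 metallothionein genes lie in a row on the plus strand of chromosome 8 (GRCm38): Mt3 at 94152607 to 94154146, Mt2 at 94172664 to 94173568 and Mt1 at 94179082 to 94180327. Their promoters are shown because these neighbours differed in how far they moved between genotypes. The sequences are the 250 bases before the RefSeq start on GRCm38.p6, at chr8:94178839-94179088 for Mt1, chr8:94172368-94172617 for Mt2 and chr8:94152357-94152606 for Mt3, all plus strand. Capitals mark the core of the metal response element, searched as TGCACNC or TGCGCNC on both strands.
Mt1 promoter: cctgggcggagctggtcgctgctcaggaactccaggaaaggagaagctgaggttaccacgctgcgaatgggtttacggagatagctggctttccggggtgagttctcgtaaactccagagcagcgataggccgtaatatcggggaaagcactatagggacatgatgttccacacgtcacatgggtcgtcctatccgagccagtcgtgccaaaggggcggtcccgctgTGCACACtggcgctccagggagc
Mt2 promoter: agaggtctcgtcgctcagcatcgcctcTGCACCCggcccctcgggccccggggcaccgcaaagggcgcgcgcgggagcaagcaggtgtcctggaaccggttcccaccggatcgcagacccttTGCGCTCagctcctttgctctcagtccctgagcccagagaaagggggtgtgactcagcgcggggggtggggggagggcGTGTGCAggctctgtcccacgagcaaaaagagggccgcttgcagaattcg
Mt3 promoter: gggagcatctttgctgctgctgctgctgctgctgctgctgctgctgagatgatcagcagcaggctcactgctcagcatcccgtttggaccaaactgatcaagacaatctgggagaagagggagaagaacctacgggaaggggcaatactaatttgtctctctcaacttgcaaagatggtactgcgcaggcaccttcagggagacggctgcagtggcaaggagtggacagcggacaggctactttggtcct
With the 50 bases after the start included, Mt1 held 3 of these cores, Mt2 held 4 and Mt3 held 1. Of the Mt1 cores, 1 lay 23 to 17 bases before the annotated start and 2 lay after it, at bases 3 to 9 and 21 to 27. Exons annotated for Mt1 hold 1246 bases, its whole span, and other starts of Mt1 were not searched. The counts of cores therefore hold for these windows only, and which start is used in brain was not tested. Of the Mt2 cores, 3 lay before the start, the nearest at 50 to 44 bases. The only core of Mt3 lay after the start, at bases 28 to 34. Among 32817 RefSeq promoter windows of the same length, 25.7% held at least 1 core, 1.97% held 3 or more and 0.518% held 4 or more. The core of the antioxidant response element, TGACNNNGC, was found once in the Mt2 window and once in 1 of the 3 windows of Txnrd1, against 12.4% of all windows. No match was found in the Nqo1 window, which says only that these letters are not in it. Such matches are descriptions of sequence and not sites shown to be bound.

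Per length, Mt1 was the most abundant of the 10 genes in WT, with 143 ± 24.6 RPKM (read counts scaled by library size, as CPM, and divided by gene length in kb, mean ± SD, n = 5). Mt3 had 95.1 ± 11.4 RPKM and Gpx4 89.0 ± 3.27, and these 2 overlapped between libraries. Gpx1 followed with 34.7 ± 2.48 RPKM and Txnrd1 with 10.5 ± 0.443. Cyba at 2.89 ± 0.594 RPKM and Nqo1 at 2.67 ± 0.452 overlapped, above Ncf1 at 1.33 ± 0.115. Mt2 at 0.137 ± 0.129 and Cybb at 0.119 ± 0.0146 RPKM were the lowest and overlapped. In DKO the order of Cyba and Txnrd1 was turned. Mt3, at 149 ± 18.4 RPKM, no longer overlapped Gpx4 at 116 ± 2.86, and Cyba, at 23.3 ± 2.27, stood above Txnrd1 at 11.0 ± 0.423.

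**Figure D1:**
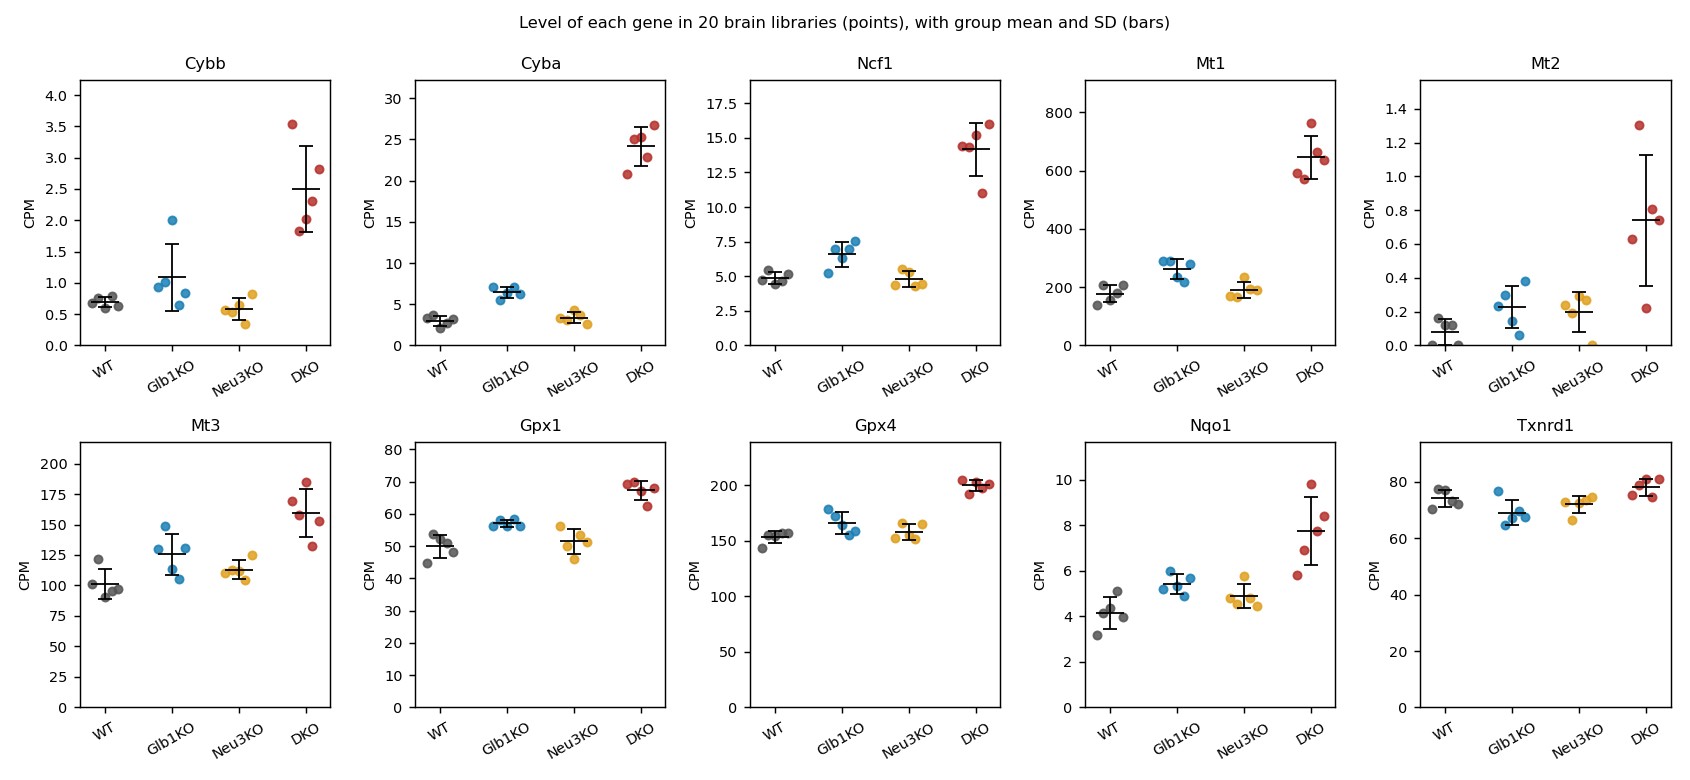
Level of each of the 10 genes in CPM (read counts scaled by library size with TMM factors; vertical axis from 0) in the 5 libraries of each genotype (horizontal axis); points are libraries, long bars the group mean and short bars the SD. In DKO, Cyba spans 20.8 to 26.8 CPM against 2.08 to 3.70 in WT, while Txnrd1 spans 74.7 to 81.0 against 70.5 to 77.5.

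In DKO against WT, 8 of the 9 tested genes were higher and none was lower at an adjusted p under 0.05 in edgeR's quasi-likelihood test. Over all genes tested, 29.0% were called in this comparison, with 14.0% higher and 15.1% lower. The median log2 difference of the 9 was 0.905, against -0.0032 over all genes tested, and Mt2 has no part in it. The largest rises were those of Cyba, Mt1 and Cybb, and Txnrd1 was the tested gene that was not called. The plot of differences gives each gene's log2 fold change with its interval for every comparison. With library totals in place of TMM factors, the calls over all genes split into 3112 higher and 2068 lower, against 2558 and 2765 with TMM, and the same 8 genes were called. The 2 groups did not overlap for 9 of the 10 genes, Mt2 included and Txnrd1 excepted, against 18.6% of all genes tested.

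**Figure D2:**
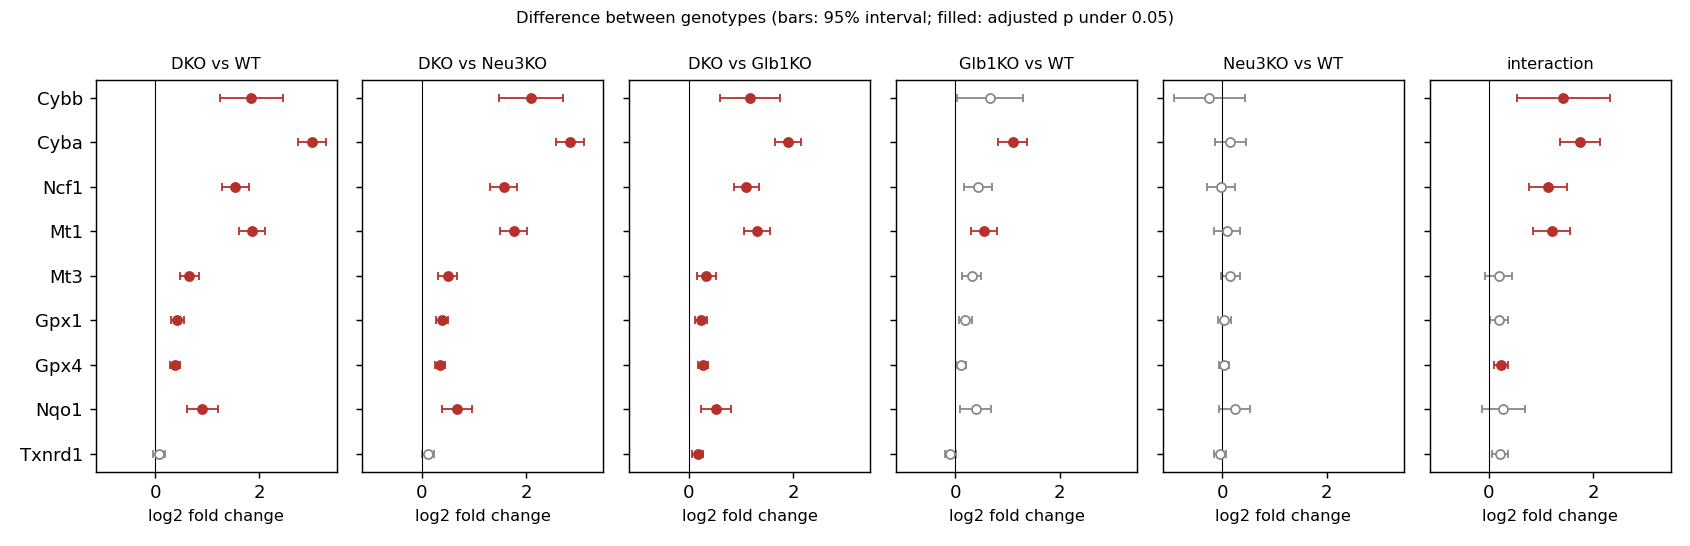
Log2 fold change of the 9 tested genes (rows) in each comparison (panels), with its 95% interval; filled points have an adjusted p under 0.05 in edgeR's quasi-likelihood test. Filled points number 8 in DKO vs WT, 8 in DKO vs Neu3KO, 9 in DKO vs Glb1KO, 2 in Glb1KO vs WT, 0 in Neu3KO vs WT and 5 in the interaction.

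Cyba, on chromosome 8 at 122424776 to 122432930, measured 3.27, 3.70, 2.08, 2.74 and 3.23 CPM in the 5 WT libraries. In DKO it measured 20.8, 25.1, 25.4, 22.9 and 26.8 CPM, so every DKO library lay far above every WT library. The rise was 8.01-fold (log2 3.00, SE 0.14, edgeR adjusted p = 9.09e-19). Among E libraries it was 2.94 on the log2 scale. In Glb1KO the values were 7.07, 5.52, 6.34, 7.12 and 6.25 CPM, again without overlap with WT, a 2.14-fold rise (log2 1.10, SE 0.14, edgeR adjusted p = 1.78e-06). Neu3KO libraries spanned 2.61 to 4.25 CPM and overlapped WT. Cyba was the only 1 of the 9 tested genes that was called in Glb1KO under each of the 19 alternatives tried.

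Ncf1, on chromosome 5 at 134220053 to 134229625, measured 4.74, 5.44, 4.41, 4.62 and 5.15 CPM in WT. DKO libraries measured 14.4, 14.3, 15.2, 10.98 and 16.0 CPM, all above WT, a 2.91-fold rise (log2 1.54, SE 0.13, edgeR adjusted p = 1.38e-11). Glb1KO libraries spanned 5.20 to 7.53 CPM and overlapped WT, with a log2 difference of 0.43 (SE 0.13) and an edgeR adjusted p = 0.0618. That difference was called without WT replicate 2 (0.48, adjusted p = 0.0495 in edgeR) or without Glb1KO replicate 1 (0.51, adjusted p = 0.0317 in edgeR). DESeq2 on all libraries also called it (0.43, adjusted p = 0.0385), which makes 3 of 19 alternatives. Of the exon bases of Ncf1, 11.1% are shared with Gtf2ird2 on the other strand.

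Cybb, on chromosome X at 9435252 to 9487771, codes for the catalytic subunit and was sparse, with 10 to 14 reads per WT library. Its level was 0.685, 0.762, 0.596, 0.790 and 0.623 CPM in WT and 3.53, 1.83, 2.03, 2.30 and 2.81 CPM in DKO, with no overlap. The rise was 3.59-fold (log2 1.85, SE 0.31, edgeR adjusted p = 1.56e-05). In Glb1KO the values were 0.934, 1.02, 2.0, 0.641 and 0.830 CPM, of which replicate 3 reached into the DKO range. The Glb1KO difference from WT was 0.67 (SE 0.32) and was not called (edgeR adjusted p = 0.297). With only E libraries it was 0.09 (SE 0.46).

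The 2 membrane subunits did not rise equally. The ratio of Cybb to Cyba reads within a library had a geometric mean of 0.233 in WT, with a range of 0.193 to 0.289. In DKO it was 0.101, with a range of 0.0731 to 0.170, so the groups did not overlap. The log2 difference was -1.21 (two-sided exact permutation test, p = 0.00794, the smallest that 252 arrangements allow, adjusted p = 0.0317 over 12 ratio tests). Leaving out any one of WT replicates 1 to 4 moved the adjusted p of that exact test to 0.0635, with a difference of -1.25 to -1.13. Among E libraries the difference was -1.06, and the smallest p of that design is 0.0476. In Glb1KO the ratio spanned 0.0901 to 0.315 and overlapped WT, with a difference of -0.58 (exact permutation test, adjusted p = 0.245). The 2 Glb1KO libraries with E, at 0.0901 and 0.133, lay below all WT libraries, a difference of -1.09, about that of DKO among E libraries (exact permutation test, p = 0.0476, the smallest this design allows, adjusted p = 0.19). With all letters kept and only Glb1KO replicate 3 left out, the Glb1KO difference from WT was -0.83 instead of -0.58 (exact permutation test, adjusted p = 0.0238).

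**Figure D3:**
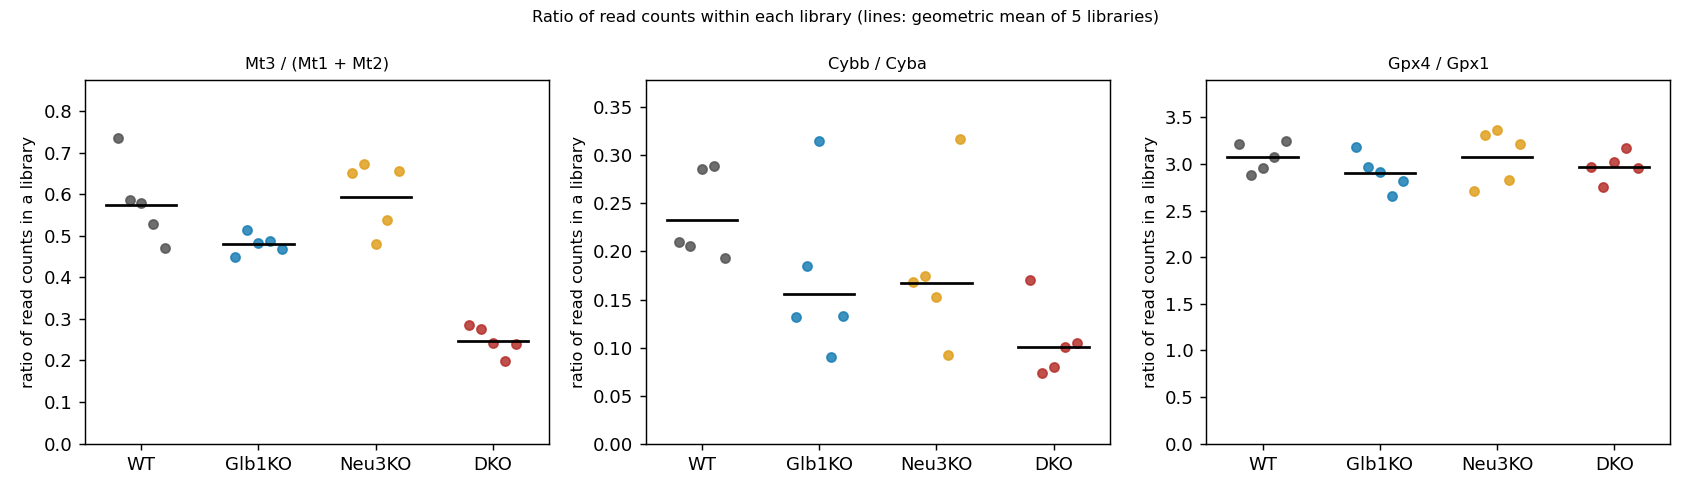
Ratio of read counts within each library (vertical axes from 0) for Mt3 over Mt1 plus Mt2, Cybb over Cyba, and Gpx4 over Gpx1, by genotype; points are libraries and lines geometric means of 5. The DKO libraries lie below all WT libraries in the first 2 panels, at 0.198 to 0.286 against 0.470 to 0.734 and at 0.0731 to 0.170 against 0.193 to 0.289, and overlap WT in the last.

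Of 15 other genes of NADPH oxidases, 9 were tested, and 4 of them rose in DKO with none lower, against 14.0% higher among all genes, with a median log2 difference of 0.57 over the 9 against -0.0032 over all genes tested. Hvcn1, a proton channel that balances the charge moved by the oxidase, rose from 0.892 ± 0.310 to 7.12 ± 0.774 CPM (log2 2.98). Ncf4, a soluble subunit, rose by 2.22 on the log2 scale, and the small GTPase Rac2 by 2.11. Rac1, its widely expressed relative and the most abundant of the list per length, measured 276 CPM in WT and 268 in DKO (log2 -0.04, not called). Nox4, Noxo1, Duox1 and Cybc1 were not called, and the others, Nox1 and Nox3 among them, had too few reads. In Glb1KO against WT, which used the same WT libraries, Hvcn1 (1.30) and Rac2 (0.94) were called higher. These were 2 of the 9, where 1.75% of all genes were higher.

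Markers of the cells that carry this oxidase were also higher in DKO. Summed over 10 microglial markers, the level was 197 to 243 CPM in WT, 248 to 276 in Glb1KO, 225 to 264 in Neu3KO and 297 to 406 in DKO. Of the 10, 6 were called higher in DKO against WT, where 14.0% of all genes tested were higher. The largest log2 differences were those of Aif1 (1.85), Fcrls (1.58) and Gpr34 (1.29). Olfml3 differed by 0.82, Cx3cr1 by 0.72 and Csf1r by 0.63. P2ry12 (0.21), Tmem119 (0.19), Siglech (0.17) and Sall1 (0.07) were not called. Of 7 markers of border-associated macrophages, 5 were called higher, against the same 14.0%. Their sums were 5.90 to 10.01 CPM in WT and 19.5 to 28.5 in DKO. Of 10 neutrophil markers, only S100a8 and S100a9 had enough reads to be tested, and both were higher. The neutrophil sum was 0.421 to 1.19 CPM in WT and 1.21 to 6.27 in DKO, and Ly6g, Elane, Retnlg and Cxcr2 were at 0 in all WT libraries. In DKO, Ly6g had 2 reads, Elane 2, Retnlg 12 and Cxcr2 6 over the 5 libraries. Among the other untested markers, Camp had 11 reads in WT and 7 in DKO, Mpo 10 and 12, and Ngp 16 and 35. Of the Ngp reads in DKO, 25 lay in 1 library. The part of these cell types in the oxidase result was not tested.

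Mt1 measured 138, 207, 156, 181 and 207 CPM in WT and 592, 571, 762, 666 and 636 CPM in DKO. The lowest DKO library lay well above the highest WT library, and the rise was 3.63-fold (log2 1.86, SE 0.13, edgeR adjusted p = 4.65e-09). Among E libraries it was 1.72. In Glb1KO the values were 289, 290.0, 235, 217 and 278 CPM, above all WT values, a 1.47-fold rise (log2 0.56, SE 0.13, edgeR adjusted p = 0.0161). That call was lost with the identifier letter as a term (0.48, adjusted p = 0.227 in edgeR), with E libraries alone, and with Glb1KO and WT alone in the fit. Neu3KO libraries spanned 167 to 234 CPM and overlapped WT.

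Mt3 measured 101, 122, 90.3, 95.8 and 97.1 CPM in WT and 169, 158, 185, 132 and 153 CPM in DKO. These groups did not overlap either, but the rise was 1.57-fold (log2 0.65, SE 0.09, edgeR adjusted p = 9.31e-06). Glb1KO libraries spanned 106 to 149 CPM and overlapped WT, with a log2 difference of 0.31 (SE 0.09, edgeR adjusted p = 0.0655). Without WT replicate 2, the highest WT library, that difference was 0.39 and was called (edgeR adjusted p = 0.00844), as it was without Glb1KO replicate 4 (0.365, edgeR adjusted p = 0.0194). With all libraries it was called without the filter on low counts (edgeR adjusted p = 2.17e-05) and with the replicate block (edgeR adjusted p = 0.0128). DESeq2 called it too (adjusted p = 0.0183), which makes 5 of 19 alternatives.

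Mt2 was nearly undetected, with 7 reads over the 5 WT libraries, 19 in Glb1KO, 19 in Neu3KO and 65 in DKO. By library these were 0, 3, 2, 2 and 0 reads in WT and 11, 22, 4, 14 and 14 in DKO. Scaled by library size, the lowest DKO library (0.219 CPM) lay just above the highest WT library (0.163 CPM). The ratio of DKO to WT was 9.21 (95% interval 4.23 to 23.8, counting error only). With no filter on low counts, edgeR called the difference at a log2 value of 3.10 (SE 0.70, adjusted p = 0.000174), and the authors' deposited table of DKO against WT gives 3.21 (adjusted p = 0.000355). Of the 588 exon bases of Mt2, 432 (73.5%) are also exon of the antisense gene Gm45774, at 94170748 to 94173412 on the minus strand. Gm45774 itself had 43 reads in WT and 80 in DKO. Whether counting used strand was not given, so the overlap's part in the low Mt2 counts was not tested.

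The balance between Mt3 and Mt1 differed between DKO and WT. Mt2 has almost no weight in the ratio used, with 7 reads against 15686 of Mt1 in WT and 65 against 57505 in DKO. Reads of Mt3 divided by those of Mt1 and Mt2 together gave 0.734, 0.587, 0.578, 0.528 and 0.470 in the WT libraries and 0.286, 0.276, 0.242, 0.198 and 0.240 in the DKO libraries. Every DKO ratio was below every WT ratio, and the log2 difference was -1.22 (two-sided exact permutation test, p = 0.00794, adjusted p = 0.0317). Glb1KO spanned 0.448 to 0.514 and overlapped WT, whose replicate 5 lay inside that range. DKO was lower than Glb1KO by the same exact permutation test (log2 -0.96, adjusted p = 0.0317). Glb1KO was not distinguished from WT (log2 -0.26, exact permutation test, adjusted p = 0.119), except without WT replicate 5, where the difference was -0.33 (exact permutation test, adjusted p = 0.0317). In Neu3KO the ratio was 0.479 to 0.673 and overlapped WT. Among E libraries the DKO difference from WT was -1.03.

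Astrocytes are a known source of metallothioneins in brain, and their markers were higher in DKO as well. Summed over 10 astrocyte markers, the level was 5654 to 6012 CPM in WT and 7092 to 7684 in DKO. It was 6007 to 6485 CPM in Glb1KO and 5788 to 6514 in Neu3KO. In Glb1KO against WT, 0 of the 10 were called, where 3.96% of all genes were. Of the 10, 8 were called higher in DKO against WT, where 14.0% of all genes tested were higher. They ran from Slc4a4 at 0.25 to Aqp4 at 1.60 on the log2 scale, while Slc1a2 (-0.01) and Fgfr3 (0.06) were not called. Oligodendrocyte markers were called lower in DKO in 8 of 8 cases, against 15.1% of all genes. Their sums were 5517 to 6290 CPM in WT, 3511 to 3999 in Glb1KO, 5551 to 6313 in Neu3KO and 3566 to 4718 in DKO. Of 8 neuron markers, 4 were called lower in DKO against WT and 4 were not called, against the same 15.1%. Neuron sums were 5300 to 5660 CPM in WT, 5623 to 5756 in Glb1KO, 5422 to 6093 in Neu3KO and 4600 to 5033 in DKO. The part of these cell types in the metallothionein differences was not tested.

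Zinc handling genes, which move zinc in and out of cells or regulate that, went both ways. Of 26, 24 were tested, and in DKO against WT 6 were called higher and 5 lower, against 14.0% and 15.1% of all genes, with a median log2 difference of 0.04 over the 24 and -0.0032 over all genes. Among the zinc importers, Slc39a1 rose by 0.64, Slc39a14 by 0.64, Slc39a12 by 0.63 and Slc39a11 by 0.52. Slc39a10, the most abundant of the list per length over all libraries, fell by 0.33 on the log2 scale. In DKO its 29.2 RPKM were close to the 29.8 RPKM of Slc39a12. The other lower calls, named after their values were seen, were Slc30a2 (-0.58), Slc39a3 (-0.29), Mtf1 (-0.23) and Slc39a9 (-0.19). Mtf1 codes for the factor that binds metal response elements. Its level remained lower under each of 19 alternatives, at -0.26 to -0.19, but 6 of them lost the call, among them library totals as scaling and leaving out WT replicate 2 (-0.20, edgeR adjusted p = 0.057), WT replicate 3 or DKO replicate 5. Slc30a2 and Slc39a9 lost their call in 9 and 8 of 19 alternatives. In Glb1KO against WT, 0 of the 24 were called, where 3.96% of all genes were.

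**Figure D4:**
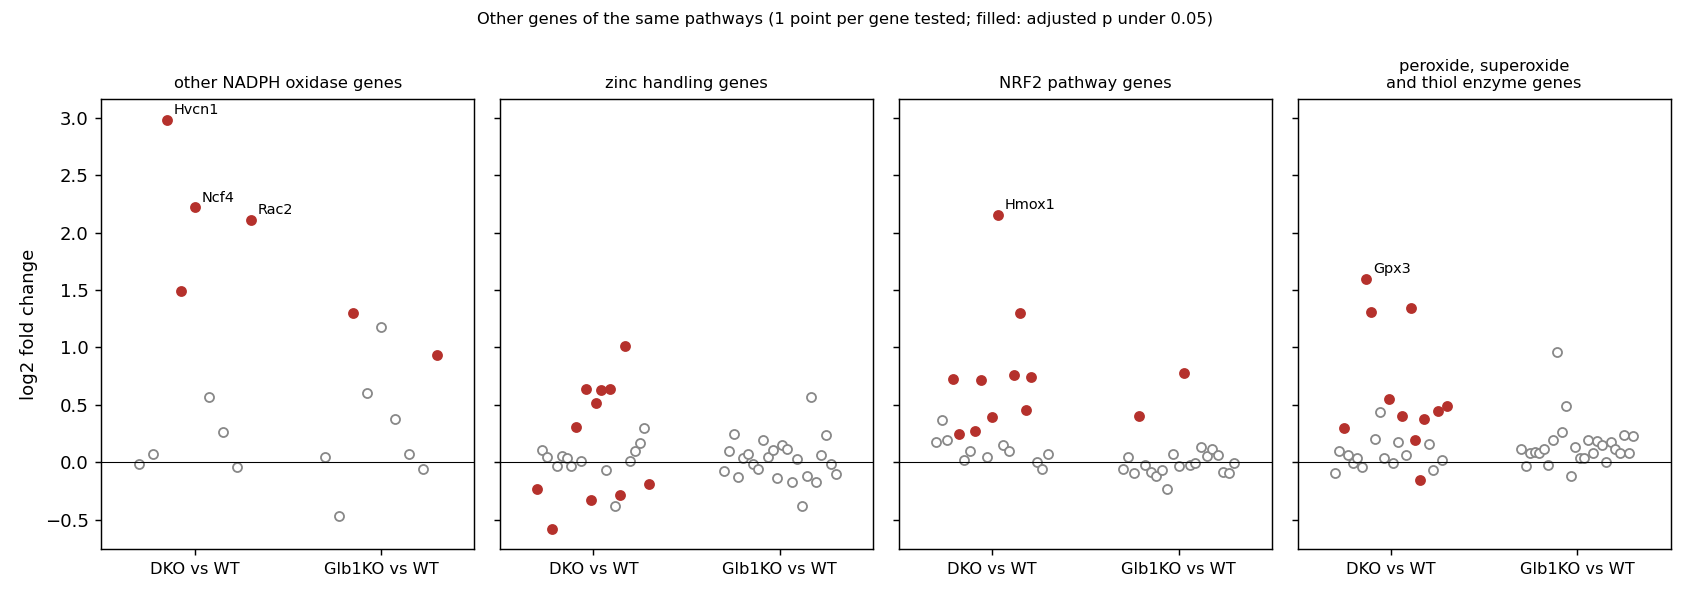
Log2 fold change of other genes of the same pathways (1 point per gene tested; filled points have an adjusted p under 0.05 in edgeR's quasi-likelihood test) in DKO vs WT and Glb1KO vs WT, which share the WT libraries. In DKO vs WT 4 of 9 NADPH oxidase, 11 of 24 zinc, 10 of 21 NRF2 and 11 of 26 peroxide, superoxide and thiol genes are filled.

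Gpx1, on chromosome 9 at 108338903 to 108340343, measured 44.7, 53.8, 52.2, 51.0 and 48.3 CPM in WT and 69.2, 70.0, 67.2, 62.4 and 68.1 CPM in DKO. The groups did not overlap, and the rise was 1.35-fold (log2 0.43, SE 0.06, edgeR adjusted p = 9.90e-07). Glb1KO libraries lay in a narrow band of 56.2 to 58.3 CPM, above all WT libraries, yet the difference of 0.19 (SE 0.06) was not called (edgeR adjusted p = 0.0707). It was called without WT replicate 2 (0.22, edgeR adjusted p = 0.0361), with library totals as scaling (0.20) and by DESeq2 (0.19). Gpx1 lies 6.06 Mb from Glb1 on the same chromosome, so sequence that travels with the Glb1 allele cannot be told apart from the loss of Glb1 here.

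Gpx4, on chromosome 10 at 80047166 to 80056439, measured 143, 155, 154, 157 and 157 CPM in WT and 205, 192, 203, 198 and 201 CPM in DKO, without overlap. The rise was 1.30-fold (log2 0.38, SE 0.05, edgeR adjusted p = 1.54e-07). Glb1KO (155 to 179 CPM) and Neu3KO (151 to 166 CPM) overlapped WT. A processed copy, Gpx4-ps2, held 3037 reads in WT and 3610 in DKO against 13519 and 17788 for Gpx4, so reads could have been divided between the copies. No shift of Gpx4 against Gpx1 was detected within libraries. Their ratio was 2.89 to 3.25 in WT and 2.75 to 3.17 in DKO (log2 difference -0.05, exact permutation test, adjusted p = 0.455).

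Nqo1, on chromosome 8 at 107388225 to 107403206, measured 3.16, 4.14, 4.35, 5.11 and 3.97 CPM in WT and 5.81, 6.92, 9.80, 7.76 and 8.39 CPM in DKO. The lowest DKO library lay above the highest WT library, and the rise was 1.87-fold (log2 0.90, SE 0.15, edgeR adjusted p = 1.50e-05). Among E libraries it was 0.63 (edgeR adjusted p = 0.0412). Glb1KO (4.87 to 6.0 CPM) and Neu3KO (4.45 to 5.78 CPM) overlapped WT, and neither was called.

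Txnrd1, on chromosome 10 at 82833951 to 82897712, measured 70.5, 77.5, 77.3, 73.4 and 72.0 CPM in WT and 75.3, 78.8, 81.0, 74.7 and 81.0 CPM in DKO. These groups overlapped, and the log2 difference of 0.08 had a 95% interval of -0.03 to 0.18 (edgeR adjusted p = 0.324). The interval therefore excludes a rise as large as that of Nqo1. DKO was higher than Glb1KO, at 64.8 to 76.7 CPM, by 0.18 on the log2 scale (SE 0.05, edgeR adjusted p = 0.0237), although these groups overlapped too. That call was lost in 8 of 19 alternatives, including leaving out Glb1KO replicate 2 (0.16, edgeR adjusted p = 0.0651), Glb1KO replicates 3 or 5, or DKO replicates 3 or 5.

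Of 22 genes of the NRF2 pathway beside Nqo1 and Txnrd1, 21 were tested, and 10 rose in DKO with none lower, against 14.0% higher among all genes, with a median log2 difference of 0.25 against -0.0032 over all genes. Hmox1, heme oxygenase, rose from 4.76 ± 1.16 to 21.2 ± 1.96 CPM (log2 2.16). Nfe2l2, which codes for NRF2 itself, rose by 0.76, the cystine importer Slc7a11 by 0.74, the epoxide hydrolase Ephx1 by 0.72 and the glutathione transferase Gstm1 by 0.39, the last being the most abundant of the list per length. Gsr, G6pdx, Pgd and Osgin1 rose by 0.27, 0.25, 0.45 and 1.30, of which Gsr, G6pdx and Osgin1 lost their call among E libraries. Gclm, a subunit of the enzyme that starts glutathione synthesis, was at 0.10 and was not called against WT. In Glb1KO against WT, Hmox1 (0.78) and Ephx1 (0.40) were called higher, 2 of the 21, where 1.75% of all genes were higher.

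Among 28 other genes of peroxide, superoxide and thiol enzymes, 26 were tested, of which 10 rose and 1 fell in DKO, against 14.0% and 15.1% of all genes, with a median log2 difference of 0.17 against -0.0032 over all genes. Prdx6, a peroxiredoxin that also acts on phospholipids, rose from 157 ± 11.1 to 399 ± 31.7 CPM (log2 1.35). Gpx3, the secreted glutathione peroxidase, rose by 1.60, Prdx1 by 0.55 and catalase (Cat) by 0.30. Prdx5, the most abundant of the list per length over all libraries, was at 0.06 and was not called. In DKO its 58.1 RPKM stood below the 83.1 RPKM of Prdx6. Sod2, the mitochondrial superoxide dismutase, was the gene that fell, by 0.16 on the log2 scale. It was named after its value was seen, and its call was lost with library totals as scaling, with the letter term and among E libraries. In Glb1KO 0 of the 26 were called, where 3.96% of all genes were.

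Against Glb1KO, the single knockout with the same missing beta-galactosidase, DKO was higher for 9 of the 9 tested genes by edgeR's quasi-likelihood test, where 15.7% of all genes were called, 8.41% higher and 7.29% lower. With library totals as scaling these calls over all genes split into 1807 higher and 1017 lower, against 1542 and 1337 with TMM. The log2 differences ran from 0.18 for Txnrd1 to 1.90 for Cyba, with Mt1 at 1.30, Cybb at 1.18, Ncf1 at 1.11, Nqo1 at 0.52, Mt3 at 0.34, Gpx4 at 0.27 and Gpx1 at 0.24. For Cybb the difference was 1.82 with the letter term and 1.87 among E libraries. Nqo1 lost its call without DKO replicate 3 (0.42, edgeR adjusted p = 0.0615), with the letter term and among E libraries. Mt3 lost it with the letter term, and Gpx1 among E libraries. Txnrd1 lost its call with the letter term (0.18, edgeR adjusted p = 0.228) and without the filter on low counts (0.17, edgeR adjusted p = 0.0775). Among E libraries (0.18) Txnrd1 was not called either. DKO and Glb1KO libraries overlapped for Cybb, Mt2, Mt3, Nqo1 and Txnrd1, and the share of overlap over all genes was not computed here.

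In Glb1KO against WT, Cyba and Mt1 were called, 2 of the 9 tested genes, against 3.96% of all genes, 1.75% higher and 2.21% lower. The groups did not overlap for Cyba, Mt1 and Gpx1, 3 of the 10 genes against 5.56% of all genes tested. In Neu3KO against WT, 0 of the 9 were called by edgeR's quasi-likelihood test or by DESeq2, and 0 had an unadjusted p under 0.05. Over all genes 0% were called there by edgeR, with 1105 of 18336 genes at an unadjusted p under 0.05 2 called by DESeq2 and 26 called by edgeR without the filter. The groups did not overlap for 0 of the 10 genes, against 1.18% of all genes tested. Differences in Neu3KO ran from -0.25 for Cybb (95% interval -0.93 to 0.43) to 0.24 for Nqo1 (-0.06 to 0.54). The 95% interval was -0.14 to 0.46 for Cyba and -0.15 to 0.35 for Mt1. In Glb1KO against WT it was 0.81 to 1.38 for Cyba and 0.31 to 0.81 for Mt1, so the 2 intervals of Mt1 overlapped. Neu3KO was not tested against Glb1KO. In DKO against Neu3KO, 8 of the 9 were higher, against 25.1% of all genes called, 12.3% higher and 12.8% lower, and the exception was again Txnrd1 (0.12, edgeR adjusted p = 0.118). With library totals as scaling Txnrd1 was called (0.17, edgeR adjusted p = 0.018), and the calls over all genes split into 2807 higher and 1651 lower, against 2263 and 2343 with TMM. DKO and Neu3KO did not overlap for 9 of the 10 genes, Mt2 excepted, against 15.6% of all genes tested. Among E libraries Gpx1 and Nqo1 lost their calls.

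Whether loss of Neu3 had a larger difference where Glb1 was missing was tested as an interaction: the log2 change from Glb1KO to DKO less that from WT to Neu3KO. It was above 0 and called for 5 of the 9 genes, against 6.84% of all genes, 3.96% above and 2.88% below 0. With library totals as scaling these split into 854 above and 356 below, against 727 and 528 with TMM. Cyba had the largest value (log2 1.75, SE 0.20, edgeR adjusted p = 8.96e-08), followed by Cybb (1.43), Mt1 (1.2), Ncf1 (1.14) and Gpx4 (0.23). Cybb was at the threshold (edgeR adjusted p = 0.0499) and lost its call in 21 of 28 alternatives. Among these was the removal of any library other than Glb1KO replicate 3, Neu3KO replicate 5 or DKO replicate 2. For those removals alone, the adjusted p in edgeR went up to 0.0972. That call was also lost with DESeq2 size factors, without the filter on low counts, with the replicate block and among E libraries (2.16). Gpx4 lost its call in 17 of 28. Removing any library lost it, other than WT replicate 1, Glb1KO replicates 1 and 2, Neu3KO replicates 2 and 5, or DKO replicate 2. For those removals alone, the adjusted p in edgeR went up to 0.0796. The Gpx4 call was also lost without the filter on low counts (0.22, edgeR adjusted p = 0.115), with the replicate block and among E libraries (0.36). Ncf1 and Mt1 lost it among E libraries, where Neu3KO has 1 library. Mt3, Gpx1, Nqo1 and Txnrd1 were not called, at 0.19, 0.20, 0.28 and 0.22, but Txnrd1 was called with library totals as scaling or without Glb1KO replicate 1 (0.26 in both).

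The same interaction was called for some other genes of these pathways, where 6.84% of all genes were called, 3.96% above and 2.88% below 0. How these calls fare under the alternatives was not examined. Of the oxidase partners it was called for Hvcn1 (1.31). Of the zinc genes it was called for the importers Slc39a14 (0.60), Slc39a1 (0.56) and Slc39a12 (0.42). Of the NRF2 genes it was called for 9 of 21, namely Hmox1 (1.54), Osgin1 (1.49), Nfe2l2 (0.74), Slc7a11 (0.60), Gsr (0.43), Gstm1 (0.41), Pgd (0.34), G6pdx (0.33) and Gclm (0.29). Of the peroxide, superoxide and thiol genes it was called above 0 for Gpx3 (1.23), Prdx6 (1.07) and Prdx1 (0.34). Acsl4, which loads polyunsaturated fatty acids onto coenzyme A, was called below 0 (-0.30).

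The genes whose levels followed the less usual members most closely were found as the smallest root mean square difference in log2 CPM from the WT mean over the 20 libraries, among 14048 protein-coding genes. For Mt3 these were Fam213a (0.123), Rpl37a (0.142) and Tmsb4x (0.149), where the median gene was at 0.437. For Nqo1 they were the astrocyte gene Aldh1l1 (0.159), Fam213a (0.162) and Cst3 (0.164), against a median of 0.526. For Gpx1 the nearest was Laptm4a (0.07), and for Txnrd1 they were P4hb (0.049), Ankrd28 (0.07) and Gosr2 (0.07). All these values come from the same 20 libraries and are a description.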

How the data were processed

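Polyadenylated RNA of 20 mouse brain hemispheres was sequenced, 5 per genotype. The authors deposited raw read counts per gene, with no normalization. A second deposited table holds log2 fold changes and p-values for DKO vs WT, per the file headers. The submitters' processing notes name DESeq2 1.20.0, featureCounts 1.5.0-p3, HISAT2 2.0.5 and fastp, with builds mm10 and GRCm38. They state no roles, filters or strand setting. The deposited FPKM table was not used here. Depth was 15162311 to 25145806 counts per library.

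Genes passing edgeR's filterByExpr were fitted in R 4.3.3 with edgeR 4.0.16 (robust quasi-likelihood F test, TMM factors, 1 mean per genotype, all 20 libraries) and called at a Benjamini-Hochberg adjusted p under 0.05 over all genes tested. The spread in the deposited counts was shared by all groups. Standard errors came from the F statistic. CPM values are TMM-scaled, and RPKM divides them by the table's gene length. Ratios were tested by exact permutation, adjusted over 12 tests. The method was tested on simulated data. Alternatives were other scaling, filters, DESeq2 1.42.0, fits of the compared groups, replicate number or identifier letter as a term, E libraries alone, and leaving out each library.

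The members and lists were chosen with earlier results of these data known. From each list up to 4 called genes with the smallest adjusted p in DKO vs WT, the most abundant per length, and any called in the interaction or in Neu3KO were named; 3 most similar genes were named for Cybb, Mt2, Mt3, Gpx1, Nqo1 and Txnrd1, using 0.5 CPM as pseudocount and genes of at least 1 CPM. Those of Cybb and Mt2 are not given, since their levels are near that pseudocount. Of the other genes this rule names, 3 are not reported here. Coordinates come from the count table and equal GENCODE M21 for all 10 genes. Promoters are from RefSeq on GRCm38.p6, where all 10 genes matched 15 windows.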

Additional observations from a re-analysis of the deposited data

Results flagged for a closer look

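Among the 40 groups of 5 libraries formed by the 10 genes and 4 genotypes, 4 held a library far from the other 4, where chance alone gives about 1 in 20. Cybb was at 2 CPM in Glb1KO replicate 3, against 0.641 to 1.02 in the others. Gpx4 was at 143 CPM in WT replicate 1, against 154 to 157. Nqo1 was at 5.78 CPM in Neu3KO replicate 3, against 4.45 to 4.81. Txnrd1 was at 66.6 CPM in Neu3KO replicate 2, against 72.4 to 74.7.

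The difference tied to Neu3 differed between mice with and without Glb1 for 5 genes, by the interaction test in edgeR. On the log2 scale it was larger without Glb1 by 1.75 for Cyba, 1.43 for Cybb, 1.2 for Mt1, 1.14 for Ncf1 and 0.23 for Gpx4. The values for Cybb and Gpx4 lost their call in 21 and 17 of 28 alternatives.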

How the results depend on the processing

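No call of the 9 genes reversed direction, and the 8 calls in DKO vs WT held under each of the 19 alternatives. The number of genes called in Glb1KO vs WT was 2, but 5 with DESeq2, 1 with the compared groups alone, 1 with the letter term, 1 among E libraries and 2 to 5 leaving out a library, with 5 without WT replicate 2. In the interaction it was 5, but 3 without the filter, 3 with the replicate block, 1 among E libraries and 3 to 5 leaving out a library. Same-numbered libraries did not deviate together (30 pairs, r from -0.163 to 0.0766), so the block, which pairs them, rests on a number alone. With this block the ratio differences of -1.22 and -0.96 (Mt3 to Mt1 plus Mt2, DKO vs WT and vs Glb1KO) and -1.21 (Cybb to Cyba, DKO vs WT) had an adjusted p = 0.188 by exact sign-flip permutation, in a design whose smallest p misses 0.05. Among E libraries these were -1.03, -0.766 and -1.06, Cybb to Cyba in DKO vs Glb1KO was 0.0277 instead of -0.627, and Gpx4 to Gpx1 in Neu3KO vs WT was -0.18 instead of 0.000477. Leaving out a library, Mt3 to Mt1 plus Mt2 ranged from -0.33 to -0.169 in Glb1KO vs WT and from -0.0202 to 0.141 in Neu3KO vs WT. Cybb to Cyba ranged from -1.4 to -1.09 in DKO vs WT, from -0.834 to -0.382 in Glb1KO vs WT and from -0.706 to -0.262 in Neu3KO vs WT, the lowest without Neu3KO replicate 5. Gpx4 to Gpx1 in Neu3KO vs WT ranged from -0.0316 to 0.0456. Calls over all genes in DKO vs WT numbered 5323, 3363 with the letter term and 2583 among E libraries. In the same order they numbered 726, 315 and 323 in Glb1KO vs WT and 2879, 1203 and 901 in DKO vs Glb1KO. In DKO vs Neu3KO they numbered 4606, 4930 and 882, and in the interaction 1255, 1111 and 183. In Neu3KO vs WT, where edgeR called 0, the count was 26 without the filter, 3 with the compared groups alone, 2 with DESeq2, 1 among E libraries, and 1 without WT replicate 1 or 2. Read depth limits Mt2, with 7 reads in WT, and Cybb, with 61. The causes of these shifts were not tested.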
